A study of Mus musculus with 8 samples.

Results

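RNA bound to Argonaute (Ago) was compared with total RNA in neural progenitor cells (NPC) at 6 days of in vitro differentiation (DIV). Members were all genes whose probes were well above background, by the scanner's own flag, on both the Ago–RNA array and the total RNA array of this stage. They numbered 21236 of the 36163 gene names on the array, or 28918 of 55681 probes. For each of them, Ago enrichment (E) is the log2 signal on the Ago–RNA array minus the log2 signal on the total RNA array after normalization, so that an E of 1 is a signal 2 times higher in Ago–RNA.

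The NPC were derived from E14Tg2A, a mouse embryonic stem (ES) cell line of strain 129/Ola, by floating aggregation and then adhesion to laminin in a serum-free medium with N2 and B27. The groups differ only in the kind of RNA, and no agent or genetic change is named in their labels. Ago–RNA was recovered from the cytosolic fraction with an antibody against all Ago proteins (clone 2A8), and total RNA was taken from whole cells without precipitation. RNA of 3 independent experiments was pooled before labeling, which leaves 1 array for each kind of RNA and no error between cultures. Hence no test between the 2 arrays was possible and no p-value is given. No control precipitation was analysed here. All cells of the dish were measured together, so fewer cells of a type and less RNA per cell cannot be told apart.

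Ago proteins carry microRNAs (miRNAs), small RNAs that guide the RNA-induced silencing complex (RISC) to matching sites in messenger RNAs, mostly in their 3′ untranslated region (UTR). A matched mRNA is repressed in translation and degraded sooner. The pairing is set mainly by the seed, the stretch near the 5′ end of the miRNA, and families of miRNAs with one seed share their sites. In neural progenitors, let-7, miR-9 and miR-125 are known for lowering genes of the stem and progenitor states, while the miR-17~92 cluster is known from proliferating cells.

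The mature miRNAs on which the analysis of 3′ UTRs below turns are shown here from RefSeq (GRCm38.p6), with bases 2 to 8, the seed, in capitals.
mmu-miR-17-5p: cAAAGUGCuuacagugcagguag
mmu-miR-92a-3p: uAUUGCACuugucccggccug
mmu-miR-130a-3p: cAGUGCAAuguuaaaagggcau
mmu-miR-19b-3p: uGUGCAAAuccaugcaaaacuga
mmu-miR-125b-5p: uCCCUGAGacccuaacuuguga
mmu-miR-9-5p: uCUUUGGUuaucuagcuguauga
mmu-let-7a-5p: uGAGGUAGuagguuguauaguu
mmu-miR-294-3p: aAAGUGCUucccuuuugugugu
mmu-miR-216a-5p: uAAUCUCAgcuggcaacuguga
mmu-miR-208a-3p: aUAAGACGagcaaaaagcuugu
The first 4 are of broad expression, the next 3 are neural, miR-294 belongs to the miR-290 family of pluripotent cells, and the last 2 are known from pancreas and heart.

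The label of the cells was checked on total RNA against ES cells at the same probes. Neural markers were far higher, with a log2 difference of 8.50 for Fabp7, a fatty acid binding protein of radial glia, and of 7.30 for Hes5, a Notch target. Nes, Sox1 and Pax6 were higher by 1.86, 2.27 and 1.94. Sox2 and Slc1a3 were not (-0.11 and -0.15), and the median of all 8 progenitor markers was 1.90. The 8 pluripotency markers were all lower, from -2.32 for Nanog to -7.86 for Fgf4. Markers of other cell types moved as well. Of 7 neuron markers 6 were detected, from -0.59 to 2.46, with Tubb3 at 2.05, while Map2 had no probe under that name. Of 8 mesendoderm markers 6 were detected, with a median of 1.23 and the highest value for Foxa2 (2.79). The 6 glial markers had a median of 0.89, led by Pdgfra (3.43). Of 6 markers of neural crest and surface ectoderm, 4 were detected, and Tfap2a had no probe under that name. Their median of -0.14 includes Foxd3, which was not detected in NPC and stood at -6.12. The part of these other cell types in the results was not tested.

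After normalization, the bulk of the genes had similar signals in both kinds of RNA. Quantile normalization of the Ago–RNA and total RNA arrays together gives them the same distribution of signals. A median E near 0 is therefore largely set by this step, and does not show how much RNA was bound to Ago. The sign of E is relative to the other genes on the arrays. The median E was 0.05, the quartiles were -0.34 and 0.40, and 87.9% lay within 1 on either side of 0. The median was 0.13 for the 12978 genes with a gene symbol and -0.06 for the 8258 loci, clones and gene models. An E of at least 1 was reached by 1252 genes (5.9% of those measured) and an E of -1 or lower by 1313 (6.18%). Of the genes past 1 on either side, 48.8% were higher in Ago–RNA, a share that scaling by the 75th percentile moved to 38.1%, normalization of the Ago–RNA and total RNA arrays apart to 75.3%, and use of exonic probes only to 65.9%. The tails were unequal further out, with 99 genes (0.466%) at 2 or above and 281 (1.32%) at -2 or below, of which exonic probes alone gave 64. The shares over all genes that are set beside the lists below include the loci, clones and gene models. With exonic probes only, these shares were 7.30% at 1 or above and 3.78% at -1 or lower.

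**Figure D1:**
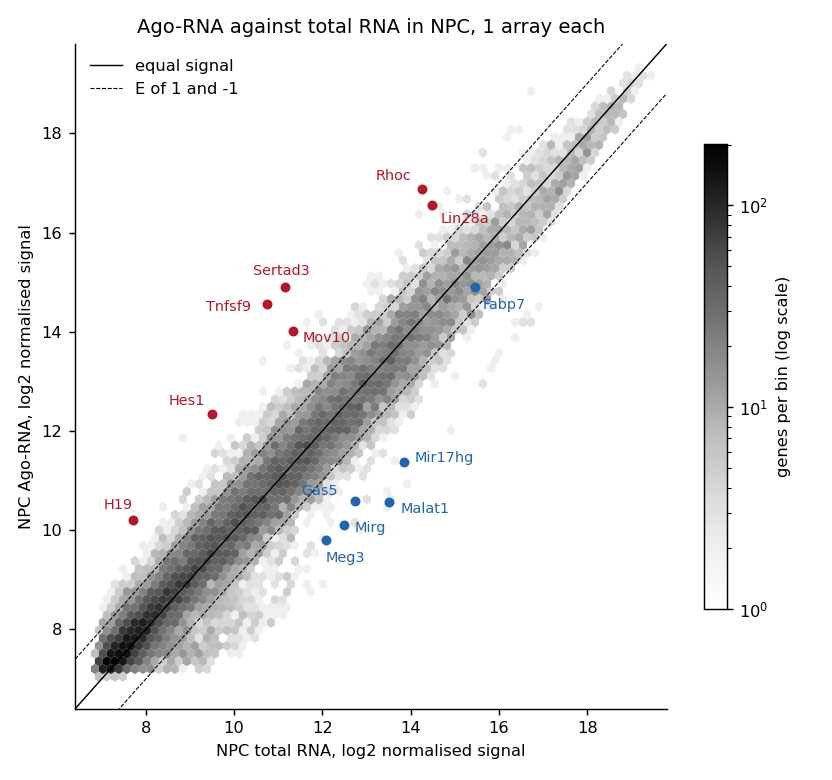
Normalised log2 signal of 21236 genes on the NPC Ago–RNA array (vertical axis) against the NPC total RNA array (horizontal axis), with the number of genes per bin in grey on a log scale. Red points are named genes with a positive E and blue points named genes with a negative E, and a cloud of genes with moderate total signal lies below the lower dashed line, at an E of -1.

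The only error held by these arrays is technical. Among 273 probes printed in 10 spots, the SD of E over spots was 0.08 (root mean square). Different probes of one gene varied more, with an SD of 0.39 (root mean square, 5427 genes with at least 2 probes) and a median SD of 0.19. In 518 of these genes (9.54%) the probes differed by 1 or more. For 15809 genes a single probe gave the value.

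The highest enrichment among genes with a symbol was seen at signaling, coregulator and histone genes. Tnfsf9, a ligand of the tumor necrosis factor family, had a log2 signal of 14.56 in Ago–RNA and 10.75 in total RNA, an E of 3.81. Sertad3, a transcriptional coregulator, had 14.89 and 11.16, an E of 3.73. Each rests on 1 probe, and probes of one gene differed by up to 4.65, at Odz3. The histone gene Hist1h3i followed at 15.32 in Ago–RNA and 12.18 in total RNA (E of 3.14), whereas no other gene of the 44 measured histone cluster genes reached 2. The median of the histone genes was -0.13. The labeling primes at polyadenylated RNA, and its part in the histone values was not tested.

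Other genes among the 15 highest have diverse known roles. Socs1 and Socs3, which turn off cytokine signaling through JAK and STAT, had E of 2.92 (11.78 in Ago–RNA, 8.87 in total RNA) and 2.71 (15.20 and 12.48). Btg2, an antiproliferative gene of neurogenic progenitors, had 14.49 and 11.73, an E of 2.76. Hes1, a repressor that keeps neural progenitors undifferentiated, had 12.34 and 9.50, an E of 2.84. The remaining genes among the 15 highest were Dnajb9, Il25, F3, Plekhm1, Rasd1, Bet1l, Rab5c and Dynlrb2, with E between 2.73 and 2.93. Of these, Rab5c and Bet1l act in vesicle traffic, F3 is tissue factor and Dnajb9 is a chaperone of the endoplasmic reticulum. Of 28 measured immediate early genes, 6 (21.4%, against 5.9% of all genes) had an E of at least 1, and Btg2 and Fosl2 (2.14) were past 2. Their median was 0.28, and Egr1 stood at -1.02.

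Genes with 2 or more probes gave values that do not rest on a single probe. F3 had E of 2.92 and 2.82 at its 2 probes, Dnajb9 had 3.19 and 2.66, and Rhoc, a small GTPase of the cytoskeleton, had 2.62 and 2.59. Next in order of their lower probe came Fbn2, Ndufa5, Mkrn3, Ubr4, Mink1, Camta2 and Syne2. All of them had E of 1.96 or more at both probes. The probes of Mink1 overlap almost fully, so they read the same stretch of the transcript. One probe each of Dnajb9, F3 and Bet1l lies in coding sequence, and is given here as printed on the array with its place in mm9 (NCBI37), to show what was hybridized at these genes. The F3 probe spans a splice junction and so covers spliced RNA.
Dnajb9, chr12:45308272-45308331, minus strand: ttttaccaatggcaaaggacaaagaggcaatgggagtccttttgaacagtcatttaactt
F3, chr3:121434609-121435346, plus strand: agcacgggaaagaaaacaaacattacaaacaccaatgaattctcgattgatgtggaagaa
Bet1l, chr7:148041005-148041064, minus strand: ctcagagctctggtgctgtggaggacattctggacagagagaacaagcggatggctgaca

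At the opposite end, the 3 lowest values of genes with a symbol were at long noncoding RNAs, Gdap10 and Malat1 under its own name and an alias. Most others among the 15 lowest were coding genes. As classes, noncoding RNAs lay nearer 0. The median E was -0.09 over 429 probes of annotated long intergenic RNAs and -0.06 over 312 probes of processed transcripts. Malat1, an abundant RNA of nuclear speckles, had 10.57 in Ago–RNA and 13.52 in total RNA, an E of -2.95. The array also lists it under its alias NEAT2, where 3 probes gave E of -2.88 to -3.21. One of them has the same place as the Malat1 probe, and the others adjoin that place. In all, 14 measured probes lay in Malat1, with a median of -2.61 and a range of -3.21 to -0.40. Gdap10, annotated as a long intergenic RNA, had the lowest value of any symbol at -3.04 (9.59 and 12.63). A further locus, annotated as Gm10060, also a long intergenic RNA and named after its values were seen, was lower still, with E of -3.70 to -3.41 at 3 probes.

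Nuclear and structural RNAs were low as a group. Of 24 measured, 14 had an E of -1 or lower, or 58.3% against 6.18% of all genes, and 6 had -2 or lower. Their median was -1.19, against 0.05 for all genes. The maternally expressed RNAs of the Dlk1–Dio3 region, Meg3 and Mirg, had E of -2.29 (9.80 and 12.08, 3 probes) and -2.38 (10.10 and 12.48, 2 probes). Kcnq1ot1, the antisense RNA of another imprinted region, had -2.30, and its probe lies antisense to an annotated intron. Gas5 and Snhg11, which host small nucleolar RNAs, had -2.16 and -2.06. Small RNAs of the nucleus also ranked low, with -1.64 for Rmrp, the RNA of RNase MRP, -1.72 for Rpph1, the RNA of RNase P, and -1.22 and -1.27 for the spliceosomal Rnu2 and Rnu12. The labeling primes at polyadenylated RNA, and its part in the values of these small RNAs was not tested.

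Not every noncoding RNA was low. H19, an imprinted and mostly cytoplasmic RNA that hosts a miRNA, was the highest member of the list at 2.51. Its 4 probes gave E of 1.57, 2.18, 2.87 and 3.40, with log2 signals of 8.62 to 11.67 in Ago–RNA and 7.05 to 8.27 in total RNA. All 4 were higher in Ago–RNA. The paraspeckle RNA Neat1 had nearly equal signals (9.93 and 9.96), and the 3 probes of Tug1 gave -0.32, 0.03 and 0.85. Mir17hg, the host transcript of the miR-17~92 cluster, had 11.38 and 13.86, an E of -2.48, and all 4 probes placed in it lay between -2.65 and -2.47. A gene of an unnamed model, counted and not named by the rule, was the highest of all at 3.85 and is annotated as a processed transcript.

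Probes of 4 noncoding RNAs are given as printed on the array (mm9), as examples of named transcripts that were low and high in Ago–RNA.
Malat1, chr19:5795713-5795772, minus strand: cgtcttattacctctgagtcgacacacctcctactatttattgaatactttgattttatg
Meg3, chr12:110809678-110809737, plus strand: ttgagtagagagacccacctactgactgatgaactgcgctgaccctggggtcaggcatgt
Mir17hg, chr14:115445828-115445887, plus strand: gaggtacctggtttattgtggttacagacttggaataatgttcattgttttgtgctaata
H19, chr7:149761492-149761551, minus strand: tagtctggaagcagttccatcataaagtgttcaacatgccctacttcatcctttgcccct
The E at these probes was -2.95, -2.47, -2.48 and 3.40, in that order.

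E also differed by where a probe lies in its gene. Each probe was placed on the annotation of the array's own build. Probes in the 3′ UTR of coding transcripts (12080 measured) had a median E of 0.16, and probes in coding sequence (4306) of 0.11. Probes in introns on the gene's strand (1508) had a median of -0.37, and 31.8% of them were at -1 or lower, against 3.34% of 3′ UTR probes. Probes in exons of transcripts annotated as retained introns (96) were alike, with a median of -0.43 and 32.3% at -1 or lower. Of the intron probes well above background in total RNA, 30.9% were not so in Ago–RNA, whereas for 3′ UTR probes the share was 4.69%. Other classes did not follow E in this, as the share was 32.0% for probes antisense to an intron (median E of -0.02) and 20.0% for 5′ UTR probes (0.16). Intron probes were also dimmer, with a median log2 signal of 9.20 in total RNA against 11.20 for 3′ UTR probes, and the part of this in the result was not tested. Whole-cell RNA holds nuclear RNA that the cytosolic fraction does not, and the fraction and the precipitation cannot be told apart on these arrays.

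**Figure D2:**
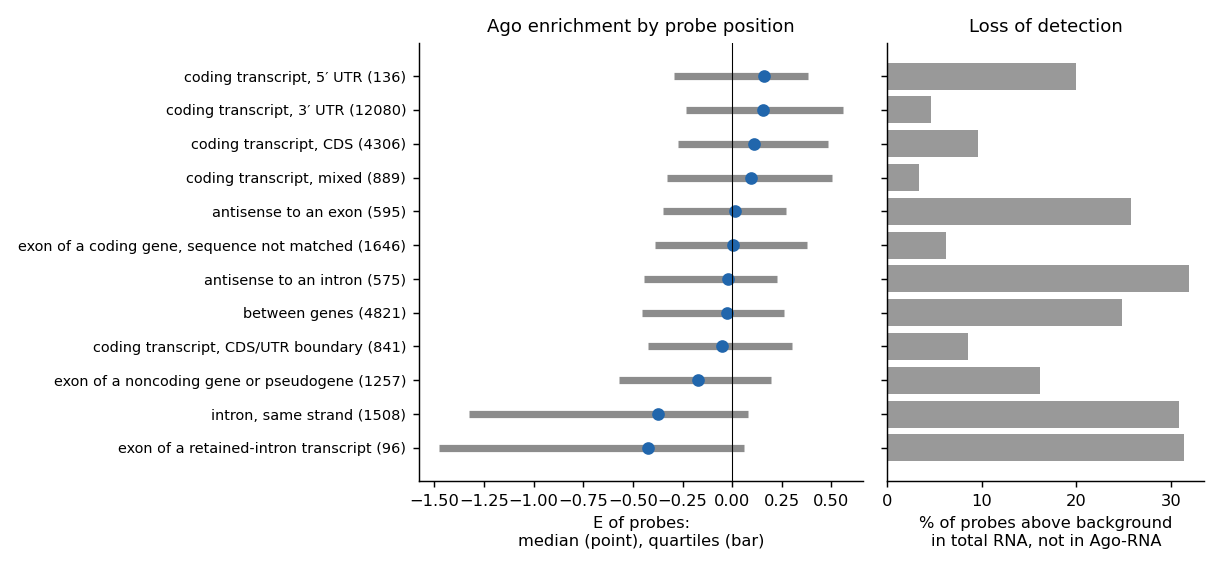
E of probes by their place on the annotation (left, point for the median and bar for the quartiles, number of measured probes in parentheses) and the percent of probes detected in total RNA that were not well above background in Ago–RNA (right). Introns and retained-intron exons have the lowest medians, -0.37 and -0.43, and quartiles that reach past -1.3.

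The same contrast was seen within genes, whose examples were chosen after their values were seen. In 585 protein-coding genes with a measured probe in an intron and another in the coding transcript, the intron probe was lower in 461 (78.8%), by a median of 0.88 on the log2 scale, and lower by at least 1 in 271. It was higher by at least 1 in 14. Mgea5, which removes O-GlcNAc from proteins, showed the largest gap, with an E of 1.36 in its coding transcript and -3.15 in its intron. Jarid2, a cofactor of Polycomb, had 1.40 and -2.55. Tnrc6b, a partner of Ago in silencing, had 1.45 and -2.57. The guidance receptor gene Robo1 had 1.26 in its coding transcript and -2.39 in its intron. The array lists the intron probes of Mgea5, Jarid2, Tnrc6b and Robo1 under other names, of clones or gene models. They were placed in these introns by coordinate and strand. For 68 genes with a probe in a retained-intron exon, 57 (83.8%) were lower there, by a median of 0.85. The paired probes of Mgea5 and Tnrc6b are shown, first in coding sequence and then in the intron (mm9).
Mgea5 coding, chr19:45842367-45842426, minus strand: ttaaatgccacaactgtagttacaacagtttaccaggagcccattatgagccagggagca
Mgea5 intron, chr19:45836384-45836443, minus strand: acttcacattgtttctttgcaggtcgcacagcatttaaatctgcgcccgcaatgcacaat
Tnrc6b coding, chr15:80759793-80759852, plus strand: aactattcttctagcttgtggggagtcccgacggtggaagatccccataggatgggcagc
Tnrc6b intron, chr15:80663562-80663621, plus strand: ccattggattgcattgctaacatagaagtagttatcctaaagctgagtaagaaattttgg

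Probes of one gene could even fall on opposite sides. In 17 gene names at least one probe had an E of 1 or above and another of -1 or below. For Kdm5b, a histone H3 lysine demethylase, 2 probes at the end of the 3′ UTR had 1.42 and 1.75, whereas 2 other probes annotated as 3′ UTR had -1.22 and -2.53. The lowest of the 4 lies far upstream of the other probes. Btg1, an antiproliferative gene related to Btg2, had 1.22 (15.91 in Ago–RNA, 14.69 in total RNA) at one 3′ UTR probe and -2.64 (8.82 and 11.47) at another, further downstream. Odz3, a teneurin of axon guidance, had 2.50 in coding sequence and -2.16 in a 3′ UTR probe. The mean over the 4 probes of Kdm5b was -0.14, a value that none of them had.

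Transcripts of the mitochondrial genome were lower in Ago–RNA throughout, an observation made after the values were seen, prompted by ND1 among the 15 lowest. All 12 measured genes had a negative E, with a median of -1.55, and 9 were at -1 or lower (against 6.18% of all genes). ND1, a subunit of complex I, had 12.06 in Ago–RNA and 14.39 in total RNA, an E of -2.33. ND4 had 13.92 and 16.03, an E of -2.11. COX2 and COX1 of cytochrome c oxidase differed least, at -0.34 and -0.39. For 5 of the 12 the array's coordinates point to a nuclear copy on chromosome 1.

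Other low genes with a symbol were less easily placed. Cabp5, Gab3, Prosapip1, Rgs7bp and Vamp5 each had 1 probe, with E between -2.82 and -2.30, as did Tbx22 (-2.56) and Cd300lf (-2.49). The first 5 had log2 signals of 13.72 to 15.73 in total RNA. The Rgs7bp probe matched a transcript of Cdk15 and not of Rgs7bp. The 3 probes listed under Gcm1, a placental regulator, had E of -1.87 to -2.51, and none lay in an annotated exon of the gene. Tia1, an RNA-binding protein of stress granules, was lower at both 3′ UTR probes (-1.53 and -1.31). Pin4, Metap1d and Slfn9 were also below -1.3 at both of their probes. Ttc14 had -2.13 in its 3′ UTR and -2.63 at a probe that lies antisense to an intron of Ccdc39. A single spot, singled out after its value was seen, gave the lowest E, -11.85 in an unnamed model gene. Its total RNA signal was 19.40 against 7.34 to 8.49 on the other 7 arrays. A further spot, in an unnamed transcript model, read 19.47 in total RNA against 6.49 to 8.30 on the other 7 arrays. It was not well above background in Ago–RNA, and so has a bound and no E.

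The mRNAs of the silencing machinery itself had mostly positive E. Of 27 measured genes of Argonautes and silencing effectors, 7 (25.9%, against 5.9% of all genes) had an E of at least 1. None had -1 or lower (against 6.18% of all genes), and the median was 0.60. Mov10, a helicase that works with RISC, was the highest at 2.67 (14.01 in Ago–RNA, 11.34 in total RNA). All 3 GW182 genes, the direct partners of Ago, were past 1, with 1.49 for Tnrc6c, 1.45 for Tnrc6b and 1.23 for Tnrc6a. The decapping genes Dcp2 and Edc4 followed with 1.48 and 1.45. Among the Ago genes themselves (Eif2c on the array), Eif2c1 had 1.01, Eif2c4 0.81 and Eif2c3 0.68. Eif2c2, which encodes the slicing Ago2, had probes on both sides, at 1.63 and -0.85. Deadenylase subunits were spread, from 0.99 for Cnot1 and Cnot6l to -0.57 for Cnot2.

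Of 16 measured genes of miRNA biogenesis, 2 (12.5%, against 5.9% of all genes) were past 1, and the median was 0.57. Lin28a, which blocks the maturation of let-7, had 16.55 and 14.48, an E of 2.07, and Dicer1, which cuts the miRNA from its precursor, had 15.06 and 13.16, an E of 1.90. Drosha had 0.77 over 2 probes and the export receptor Xpo5 0.52. Dgcr8, the partner of Drosha, and Lin28b, the paralog of Lin28a, were both at -0.12. Prkra, a cofactor of Dicer, was well above background in Ago–RNA only.

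Of 24 listed let-7 targets, 5 had an E of at least 1 (20.8%, against 5.9% of all genes and 7.30% with exonic probes only). None had -1 or lower (against 6.18%, and 3.78% with exonic probes only). Their median was 0.40, against 0.13 for genes with a symbol. Besides Lin28a and Dicer1 these were Trim71, a stem cell ubiquitin ligase and classical let-7 target, with 1.30 and 1.92 at its 2 probes, Igf2bp1 (1.47) and Ccnd1 (1.02). No let-7 seed match was found in the longest annotated 3′ UTRs of Dicer1 and Ccnd1. Hmga2, which carries 4 let-7 seed matches in its longest 3′ UTR, had -0.22 and -0.48 at its 2 probes. A seed match was found in 19 of the 24, whose median was 0.38, against 0.63 for the others.

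A site for a seed match, in capitals, is shown in its place in the mRNA for 4 genes with an E past 1 and for Hmga2 at -0.35 (NCBIM37 transcripts).
Lin28a, let-7: agcctgttgaaCTACCTCatttttgccgat
Trim71, let-7: ttgcctaagtcCTACCTCagcttaaatttt
Hmga2, let-7: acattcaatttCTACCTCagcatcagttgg
Rhoc, miR-290: tattacacaccAGCACTTtatatatttttg
Tgfbr2, miR-290: gggatagcgttAGCACTTgacaatcagtca

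Of 24 listed targets of miR-124, whose sequence was not used here, 6 were past 1 (against 5.9% of all genes), with a median of 0.47. They were Neurod1 (1.93), a proneural factor, the adhesion genes Itgb1 (1.48) and Lamc1 (1.25), Rhog (1.28), Dlx2 (1.16) and Jag1 (1.03). Ptbp1, the splicing repressor of non-neural cells, had 0.35 and its neural paralog Ptbp2 -0.81. Of 26 listed targets of miR-290, 5 (19.2%, against 5.9%) were past 1, led by Rhoc (2.61) and Tgfbr2 (1.64), with a median of 0.31. The median was 0.27 for the 16 with a seed match and 0.35 for the others. The list for miR-9 had a median of 0.13, the same as genes with a symbol. Hes1 was the only one of its 20 genes past 1 (5.0%, against 5.9% of all genes). No miR-9 seed match was found in the longest annotated 3′ UTR of Hes1. Rest, a repressor of neuronal genes, had 0.79.

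Markers of the progenitor state were close to the bulk of genes. Of 29 measured, Hes1 was the only one at 1 or above (3.45%, against 5.9% of all genes). None was at -1 or lower (against 6.18% of all genes), and their median was 0.24. Nes, an intermediate filament of progenitors, had 0.70 (15.55 in Ago–RNA and 14.86 in total RNA), Sox2 had 0.44 and Hes5 had 0.48. Sox1 had 0.65, and both its probes overlap an intron of another gene model. The 2 lowest were glial glutamate transporter Slc1a3 at -0.80 and Fabp7 at -0.56 (14.90 and 15.46). Pax6 was -0.46 at one probe and 0.48 at the other.

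The 38 measured proneural and early neuron genes had a median of 0.09, with 4 (10.5%, against 5.9% of all genes) at 1 or above. At -1 or lower was 1 (2.63%, against 6.18% of all genes and 3.78% with exonic probes only). Neurog2, a proneural factor that starts neurogenesis, had 11.83 and 9.78, an E of 2.05. Neurod1, which acts downstream, had 2.03 and 1.84 at its 2 probes. Dll1, a Notch ligand shown by newborn neurons, had 1.43 and the neurofilament gene Nefl 1.62. Other neuronal genes were below 0, with -1.30 for Snap25 of the synaptic vesicle machinery (12.94 and 14.24), -0.97 for Stmn3 and -0.29 for Gap43. Tubb3, a tubulin of neurons, had 0.31.

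Genes of chromatin regulators had positive medians. Their lists follow families that the study took from a database and compared between ES cells and floating aggregates of this series. The lists were chosen with that result known, and so are no independent evidence. Of 34 measured remodelers of the SWI/SNF and CHD families, 12 (35.3%, against 5.9% of all genes) had an E of at least 1, with a median of 0.59. None had -1 or lower, against 6.18% of all genes and 3.78% with exonic probes only. Smarcd2 had 2.07, Chd4 1.87 and Chd7 1.84. Not all subunits were high, as Smarce1 had -0.62 and Smarcd3 -0.60. Of 12 histone lysine demethylases, 5 (41.7%, against 5.9%) were past 1, led by Kdm3b (1.80), and the median was 0.77. Of 4 DNA methyltransferase genes, Dnmt1 had 1.69 and Dnmt3a 1.28, followed by Dnmt3b (0.92) and Dnmt3l (0.44). Among Polycomb genes, Jarid2 (1.40), Cbx6 (1.20) and Aebp2 (1.04) were past 1, whereas the core subunits Ezh2 (-0.18), Eed (0.14) and Suz12 (0.32) were not, and Bmi1 had -0.99. Acetyltransferase and deacetylase genes had medians of 0.31 and 0.45. The 5 arginine methyltransferase genes had a median of 0.25, with none past 1 (against 5.9% of all genes).

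Families outside chromatin reached similar or larger values. Of 37 measured collagen and laminin genes, whose products build the extracellular matrix, 17 (45.9%, against 5.9% of all genes) were past 1 with a median of 0.87. Col5a1 had 2.09 and Col11a1 2.04. Of 76 ubiquitin ligase and deubiquitinase genes, 19 were past 1 (against 5.9% of all genes), with Ubr4 highest at 2.20. Nucleoporin genes had a median of 0.50, and cadherins and protocadherins of 0.36, with Fat1 at 2.42.

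Several protein families lay below the median of all genes. Mitochondrial ribosomal proteins had a median of -0.42 (74 genes), proteasome subunits of -0.36 (41), nuclear-encoded oxidative phosphorylation subunits of -0.31 (78) and cytosolic ribosomal proteins of -0.28 (83). None of the 83 cytosolic ribosomal protein genes was at 1 or above (against 5.9% of all genes). At -1 or lower were 2 of them, or 2.41%, a smaller share than the 6.18% of all genes. Single members differed widely, with Ndufa5 at 2.39 against Ndufb6 at -1.33, both of complex I.

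**Figure D3:**
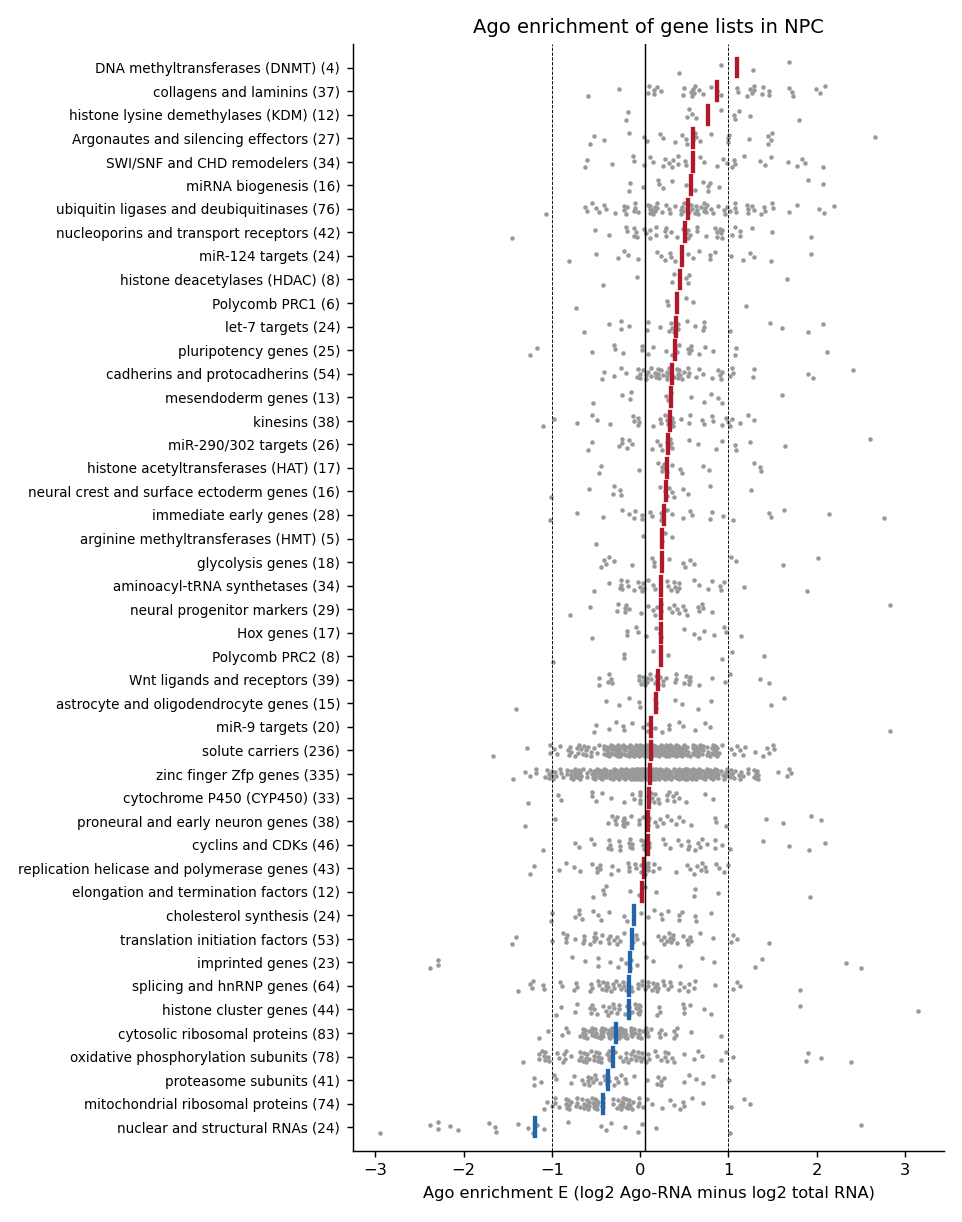
E of the measured genes of each list (grey points) with the list median (red above 0, blue below), ordered by median, and the number of measured genes in parentheses. The solid line is the median of all genes, 0.05, the dashed lines are an E of 1 and -1, and nuclear and structural RNAs lie farthest left at -1.19.

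E also moved with transcript length. For 13595 genes with an annotated 3′ UTR, E was higher with greater transcript length (Spearman's rho of 0.36 across genes, which are not independent replicates) and with coding length (0.35), and less with 3′ UTR length (0.19). Among 5 equal groups of genes, the group with the shortest transcripts (up to 1586 bases) had a median E of -0.16 and 4.71% at 1 or above. The group with the longest (from 4670 bases) had 0.49 and 17.1%. A+T content of the 3′ UTR had a rho of -0.11, and the total RNA signal, which itself enters E, of -0.22. The lists differed in length, with a median coding length of 4767 bases for the SWI/SNF and CHD genes, 4494 for collagens and laminins and 444 for cytosolic ribosomal proteins, against 1209 for all genes. The let-7 targets (1083 bases) and miR-124 targets (1056), with a median E above that of all genes, were not long in coding sequence. Their median transcripts were longer, at 4065 and 3082 bases against 2861 for all genes. So were their 3′ UTRs, at 2398.5 and 1581.5 bases against 1114. The kinesin genes (2844 coding bases) had a median E of 0.33 and the Zfp zinc finger genes (1680) of 0.11. What part length has in the lists was not tested.

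**Figure D4:**
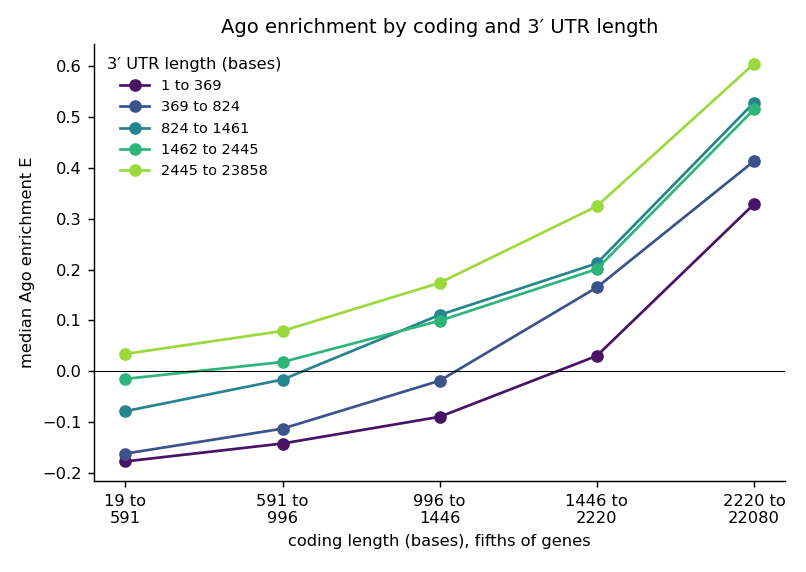
Median E (vertical axis) of genes grouped by 5 equal groups of coding length (horizontal axis, bases) and 5 of 3′ UTR length (lines). In every line the median rises from the shortest to the longest coding sequences, from -0.18 to 0.33 for the shortest 3′ UTRs and from 0.03 to 0.60 for the longest.

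The differences by coding length were seen at each 3′ UTR length. Among genes with the shortest 3′ UTRs, the median E went from -0.18 for the shortest coding sequences to 0.33 for the longest. Among genes with the longest 3′ UTRs it went from 0.03 to 0.60.

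Genes with miRNA seed matches in the 3′ UTR had a slightly higher E for most families of broad or neural expression. Because long UTRs hold more matches by size alone, genes with and without a match (the complement of bases 2 to 8, on the mRNA strand, searched in the longest annotated 3′ UTR) were compared within 10 bins of 3′ UTR length. For the miR-17 family the difference was 0.20 in favor of genes with the site GCACTTT, which 13.4% of the UTRs hold, and the difference had this sign in 10 of 10 bins. It was 0.19 for miR-25/92 (GTGCAAT, 7.04% of UTRs, 9 of 10 bins), 0.16 for miR-130 (TTGCACT, 10 of 10 bins) and 0.14 for miR-19 (TTTGCAC, 12.4%, 10 of 10). The sites of miR-92, miR-130 and miR-19 share the letters TGCA, and those of miR-17 and miR-130 share GCACT. A UTR may therefore count for several of these families. Within a grid of coding and 3′ UTR length, added after seeing the data, miR-25/92 gave 0.17, miR-17 0.16, miR-130 0.12 and miR-19 0.11, so the order of the first of these depends on the bins.

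The other families, broad and neural alike, gave differences of 0.08 or less. Among broad ones it was 0.08 for both miR-15/16 and miR-103, 0.06 for miR-30, 0.02 for miR-26 and 0.00 for miR-181. Among neural ones the value was 0.08 for miR-125 (CTCAGGG, 14.8% of UTRs, 10 of 10 bins), 0.07 for miR-219, 0.06 for miR-128, and 0.04 for both miR-9 (ACCAAAG, 13.3%, 8 of 10 bins) and let-7 (CTACCTC, 10.3%, 7 of 10). For miR-290 it was 0.03, although its site AGCACTT shares 6 letters with that of miR-17. Families known from other tissues had, within these bins, -0.00 for miR-1 of muscle, -0.01 for miR-223 of myeloid cells, -0.06 for miR-216 of pancreas (TGAGATT, 4 of 10 bins) and -0.08 for miR-208 of heart (CGTCTTA, 3 of 9 bins). All of these differences describe medians over many genes. They are below the SD between probes of one gene, a spread that does not measure the error of such medians. The levels of the miRNAs themselves were not measured on these arrays.

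**Figure D5:**
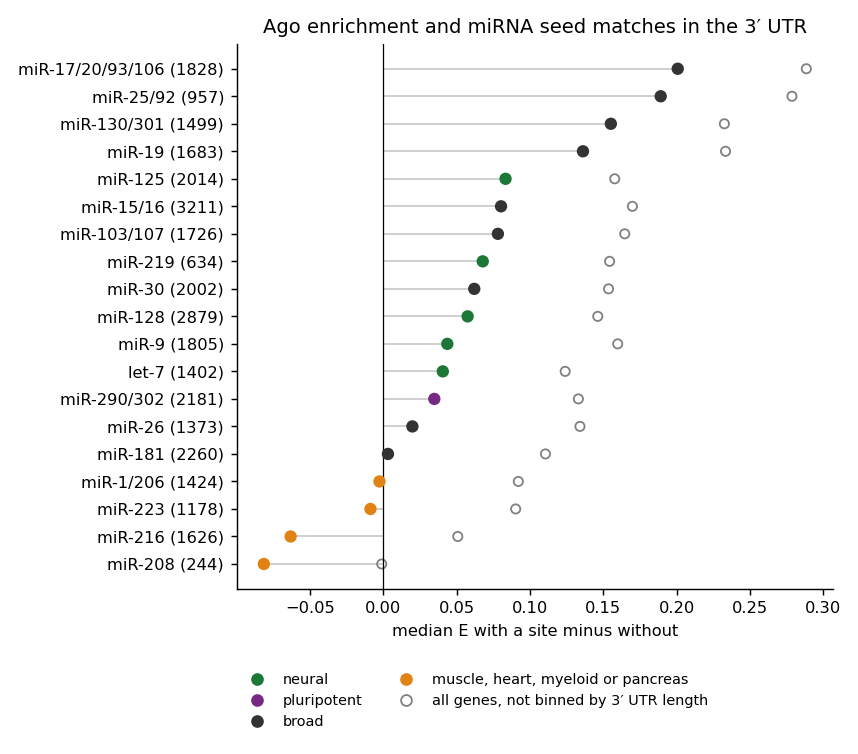
Median E of genes with a seed match minus that of genes without, for 19 miRNA families, with the number of genes that hold a match in parentheses. Filled points are the mean difference over 10 bins of 3′ UTR length and open points the difference without bins, and the filled points run from 0.20 for miR-17 to -0.08 for miR-208.

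Genes seen on one array only have no E but a bound. Of the gene names, 2399 (6.63%) were well above background only in total RNA and 619 (1.71%) only in Ago–RNA. A bound is the brighter signal over the higher of the dim probe's own signal and the lowest signal called above background on that array, and each group is 1 array. The largest for a gene with a symbol in total RNA was Syt10, a synaptotagmin, at least 5.87-fold higher than in Ago–RNA, followed by the myosin gene Myl2 (at least 3.36-fold). In Ago–RNA, Ptprh, a receptor phosphatase, was at least 3.75-fold higher, followed by Ssty1 (3.24), Slc24a4 (3.15), Nalcn (2.87) and Ces1b (2.82).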

How the data were processed

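Ago–RNA and total RNA were measured on Agilent one-colour arrays (SurePrint G3 Mouse, mm9), 1 array for each kind of RNA in NPC, among 8 arrays of the series. The authors deposited spot intensity from Feature Extraction 10.7.3.1 (per the file headers), not normalized between arrays. RNA amounts for labeling are 50 ng in the labels and 200 ng in the methods. The labeling kit primes at the 3′ end of polyadenylated RNA, and this bears on RNAs without a tail.

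Local background was removed from the mean spot signal by the normexp method of limma 3.58.1 (R 4.3.3), with an offset of 50. Spots that the scanner marked as irregular (279 and 204) were dropped. Quantile normalization of log2 values used all 8 arrays, after which spots of one probe, then probes of one gene name, were averaged. The deposited flags, a score of 0 or 1 per spot set by the scanner software, gave which spots were well above background. No spot was saturated, and 55.0% and 60.6% of spots were well above background in Ago–RNA and total RNA. Other steps used Python 3.11.15 and pandas 2.3.3. Probes were placed on GENCODE vM1, of the array's build, where 27520 of 55681 matched a coding transcript. The procedure was tested on simulated data. Members and lists were chosen with earlier results of these data known. Genes are named as the 15 highest and lowest, the 10 highest and lowest with 2 or more probes, all members of the silencing, target, neural, nuclear RNA and chromatin lists, extremes of other lists, and the 5 largest bounds. Gene models and clone names are not named. Some genes that this rule takes in are not reported here.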

Additional observations from a re-analysis of the deposited data

How the results depend on the processing

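No paired analysis was possible because each group holds 1 array. E was recomputed under 12 other settings, 1 of them (only probes in annotated exons) chosen after seeing the data. Of the 392 named genes, none with an E past 1 on either side changed sign, while genes nearer 0 did, up to Foxp1 at -0.52. Scaling the processed intensity to the 75th percentile moved the median of all genes by -0.17, and normalizing Ago–RNA and total RNA arrays apart moved it by 0.15. The size of E was less stable than its sign. With separate normalization 182 of the named genes moved by 0.39 or more, the SD between probes, and with percentile scaling 23. Of 47 list medians, taken relative to all genes, 20 and 14 moved by 0.19 or more under these settings. Of the genes past 1 on either side, 48.8% were higher in Ago–RNA, which became 38.1%, 75.3% and 65.9% under percentile scaling, separate normalization and exonic probes. The 1252 genes at 1 or above became 1989 with the processed intensity quantile normalized and 2530 with separate normalization, and the 99 at 2 or above became 205 and 247. The 1313 at -1 or below became 2291 with percentile scaling, 830 with separate normalization and 609 with exonic probes only. The 281 at -2 or below became 469 with the processed intensity quantile normalized, 610 with percentile scaling and 64 with exonic probes. Relative to all genes, neural progenitor markers went from 0.18 to 0.39 with percentile scaling and 0.38 with arrays centred on medians, and nuclear RNAs from -1.25 to -1.04 with separate normalization and -0.86 without a filter. Argonautes and silencing effectors, at 0.55, ranged from 0.50 to 0.73 over all 12. Seed differences were recomputed with the transcript of longest coding sequence and, chosen after seeing the data, within a grid of coding and 3′ UTR length, where miR-17 gave 0.20 and 0.16. In the grid miR-290 went from 0.03 to 0.01, miR-26 and miR-181 from 0.02 and 0.00 to -0.00 and -0.01, and miR-1 from -0.00 to 0.02. With 1 array a side, the number of arrays limits every value.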
